A study of Mus musculus with 4 samples.

Results

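The sites described here are CTCF-bound regions that were listed in matrix-depositing (day 9) and mineralizing (day 28) mouse osteoblasts but not in the proliferating cells they came from (day 0). CTCF is a zinc-finger protein that recognizes a long DNA motif, blocks contact between enhancers and promoters at insulators, and stops the cohesin ring at the anchors of chromatin loops. Most of its sites are held in every cell type, while a smaller part differs between cell types, often together with DNA methylation or chromatin opening at the motif. The comparison asks which sites are listed once matrix is laid down and stay listed until the matrix mineralizes.

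The study mapped CTCF by chromatin immunoprecipitation and sequencing in MC3T3-E1 subclone 4, a preosteoblast line from mouse calvaria that is 1 clone, of strain C57BL/6 per the labels. The stages are proliferating cells at day 0, matrix-depositing cells at day 9 and mineralizing cells at day 28; ascorbic acid and beta-glycerophosphate were given to start differentiation. All groups share the line and the CTCF antibody, and the input DNA from day 9 was not analysed here. Each stage is represented by 1 peak list, so there is no replicate error, and no difference between days can be tested. On chromosomes 1 to 19 the lists held 65943 (day 0), 41808 (day 9) and 44650 (day 28) peaks, and the read depth behind them is unknown.

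Peaks that shared at least 1 bp were merged into 68920 union regions. The sites were chosen by which lists held a peak: a day 28 peak and a day 9 peak were required and any day 0 peak barred a region, which left 1040. These are 1.51% of the union regions (95% Wilson interval 1.42 to 1.60), a share that the selection itself sets. They made up 2.35% of the regions with a day 28 peak and 2.57% of the regions with a day 9 peak. Regions without a day 0 peak were 6.62% of all day 28 regions and 4.69% of all day 9 regions. Intervals given here and below cover counting error alone, since regions of 1 list are not replicates.

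The sites were mostly weak in both later lists. Strength was read from the score deposited with each peak, which grows with depth. The score was therefore turned into a percentile within its own list, near 0 for the lowest peak. Scores of 3100 or more were tied, so the highest percentile was 90.5 at day 28 and 94.3 at day 9. The scores helped to choose which peaks were listed, so these values describe the sites and support nothing. Scores at day 28 ran from 100.07 to 3100, with a median of 230.63 and quartiles of 148.265 and 366.9. Scores at day 9 ran from 100.01 to 2616.17, with a median of 168.24 and quartiles of 126.775 and 254.127. The median percentile was 27.04 in the day 28 list and 20.9 in the day 9 list. Regions found at all 3 stages had median percentiles of 59.3 at day 28 and 56.1 at day 9. The sites thus stood well below the constant CTCF sites, but above regions of a single later list, whose median percentile was 12.5 for day 28 alone and 9.18 for day 9 alone.

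A small upper tail lay above this weak majority. A score of at least 500 in both later lists was reached by 44 of the 1040 sites, and a score of at least 1000 in both by 9. Of the 36137 regions found at all stages, 20135 reached 500 in both and 14358 reached 1000 in both. Under 200 in both lists were 348 sites (33.5%). Above the median of the list stood 79 sites at day 28, 58 at day 9 and 29 in both. Only 1 site was at the saturated score of 3100 at day 28, where the p-value underflows, and none was at day 9. Since scores of 3100 or more were tied, the highest decile of the day 9 list held only saturated regions. Its count of 0 sites in 4768 regions thus repeats that none was saturated at day 9. That count leaves room for up to 0.0629% when the limit is set at 3 counts (95% Wilson upper limit 0.0805%).

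**Figure D1:**
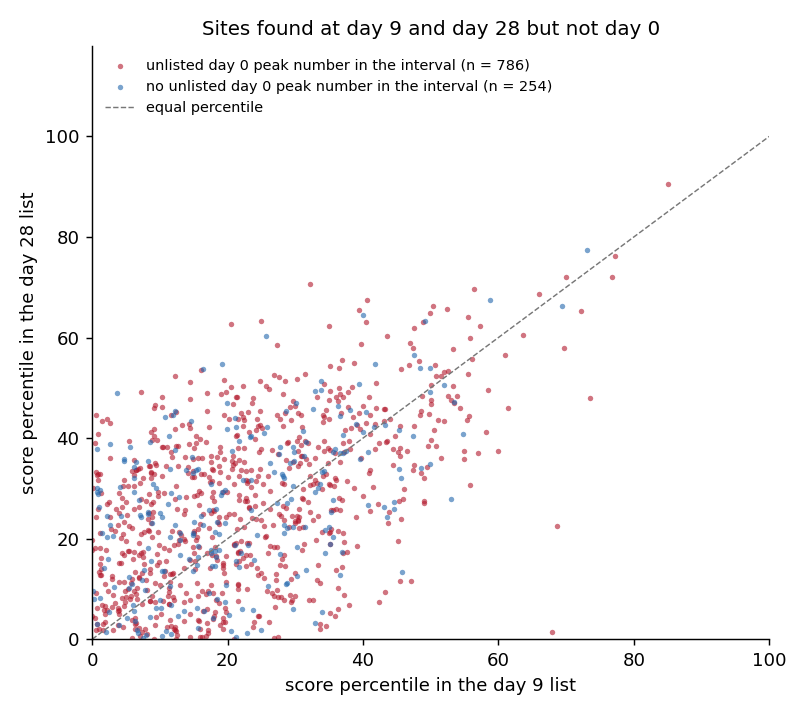
Each point is 1 of the 1040 CTCF sites listed at the later stages and not at day 0, placed by its score percentile in the day 9 list (horizontal) and in the day 28 list (vertical); the colour shows whether a numbered but unlisted day 0 peak lay between the nearest listed day 0 peaks. Most points crowd below percentile 50 in both lists, and the 786 red and 254 blue points overlap over the whole range.

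Being found in both later lists, the sites could be compared with themselves. Of the 1036 sites with exactly 1 peak in each later list, 621 (59.9%) ranked higher at day 28 than at day 9, with a median difference of 3.88 percentile points (quartiles -6.19 and 15.6). Regions found at all stages with a day 9 percentile in the interquartile range of these sites differed by a median of 5.40 points in the same direction. Spearman's rho of the day 28 and day 9 scores was 0.468 over the 1036 sites. Over the 34825 all-stage regions with 1 peak in each later list it was 0.930, and over the 6998 of them in that narrower range 0.298. The sets cover unlike ranges of scores, so these values describe each set across regions of the same libraries and do not rank them.

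The day 28 and day 9 peaks of a site lay in nearly the same place. The distance between their centres was 38.5 bp in the median (35.0 to 40.5), with quartiles of 18.0 and 66.1 bp, and 86.7% of the centres lay within 100 bp of each other. In the like-ranked regions of all stages the median was 36.5 bp (35.5 to 37.5). Merging asked for 1 bp of overlap, yet every one of these 1036 pairs overlapped by at least 56.6% of the shorter peak. The later lists thus placed a site about as closely as they placed constant CTCF sites of like rank, and the intervals of both medians overlap.

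Peak widths were near those of constant sites of like score. The median width of a site's peak was 600.5 bp at day 28 and 451 bp at day 9, and 87.7% of the 1036 sites were wider at day 28, against 91.7% of the like-ranked regions and 92.8% of all regions found at all stages. Among peaks of all-stage regions in the same decile of scores, the sites stood at a median width percentile of 51.5 at day 28 and 56.0 at day 9. Peaks narrower than the 5th percentile of these like-scoring peaks made up 4.71% of the sites at day 28 (3.58 to 6.17) and 3.27% at day 9 (2.35 to 4.53). Among the regions listed at day 9 alone this share was 9.04% (7.30 to 11.1), and among those listed at day 28 alone 6.31% (5.30 to 7.49). In 4 sites a pair of day 9 peaks lay in the same region as 1 day 28 peak.

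Whether a weak day 0 peak had been called at these places could be read from the peak names. Each name carries a running number that follows position along every chromosome in all 3 lists, and no listed score is under 100. A number missing between neighbouring listed peaks is read here as a peak that was numbered by the caller but left out of the list; neither the notes nor the lists state this, and the position and score of such a peak are not known. On chromosomes 1 to 19 the day 0 list lacked 27834 such numbers between listed peaks. Of the 1040 sites, 786 (75.6%, 72.9 to 78.1) lay between day 0 peaks whose numbers were not consecutive.

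Intervals between neighbouring day 0 peaks were compared directly, each counted once. The 981 day 0 intervals that held a site had an unlisted day 0 number in 74.7% of cases (71.9 to 77.3). Intervals that held no region found at later days alone had one in 27.1% of cases (26.8 to 27.5), but the median length was 37.8 kb for intervals with a site and 11.7 kb for these. Weighted to the lengths of the intervals with a site, their share was 39.2%. The intervals directly left and right of those with a site gave 38.6% when weighted in the same way, which is close to the value for all intervals without a later-only region. In the shortest intervals, under 10 kb, an unlisted peak must lie near the site. There the share was 58.4% (49.2 to 67.1) with a site and 10.6% (8.69 to 12.9) in the adjoining intervals. It was 12.9% (12.5 to 13.3) in all intervals without a later-only region. Lengths still differed within this class, with medians of 6.67, 3.58 and 3.27 kb in that order, and longer intervals had higher shares. This contrast was not adjusted for length.

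**Figure D2:**
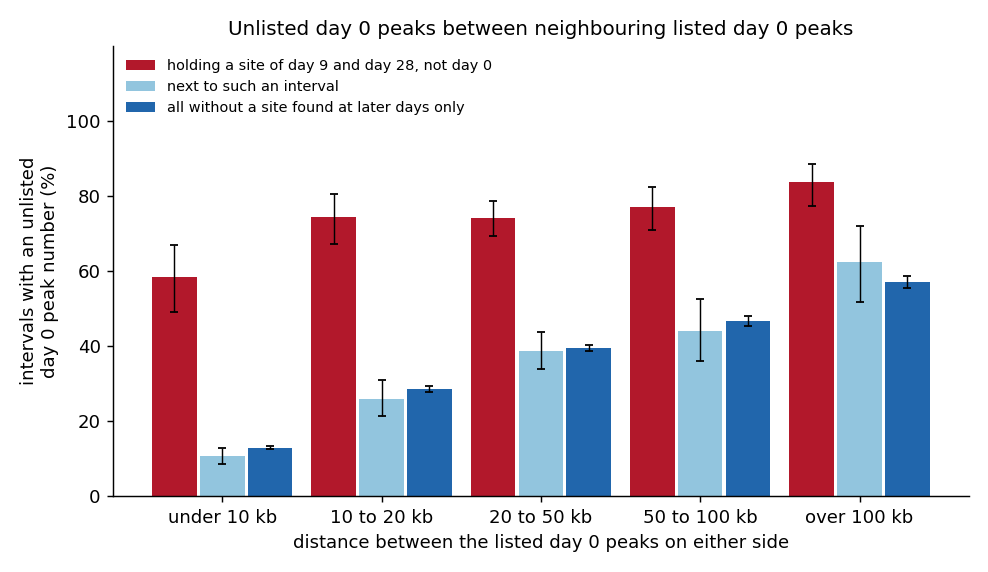
Bars give the share of intervals between neighbouring listed day 0 peaks (vertical, percent) in which at least 1 numbered day 0 peak is missing from the list, by the length of the interval (horizontal), with 95% Wilson intervals. In every length class the intervals that hold a site of day 9 and day 28, not day 0, stand above the intervals next to them and above all intervals without a later-only region. The shares run from 58.4% against 10.6% and 12.9% under 10 kb to 83.6% against 62.4% and 57.1% over 100 kb. Lengths also differ within a class: under 10 kb the medians are 6.67, 3.58 and 3.27 kb in the same order.

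Other regions missing from a list gave high shares as well. Day 0 intervals with a region listed at day 28 alone had an unlisted number in 71.4% of cases (69.3 to 73.5), and those with a region listed at day 9 alone in 67.9% (64.7 to 71.0). In the day 9 list, 85.1% (84.0 to 86.1) of the intervals with a region held by the other lists had an unlisted day 9 number, against 21.2% in like-long intervals without other regions. In the day 28 list, 86.3% (84.9 to 87.7) of the intervals with a region held by the day 9 and day 0 lists had one, against 15.0%. The lists differ in length and in their number of unlisted peaks, and the differences between these shares were not tested.

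The shares had overlapping intervals for weak and strong sites. An unlisted day 0 number was present for 76.9% (72.2 to 81.1) of the 347 sites in the highest 33.3% by the lower of their percentiles, for 74.3% of the 346 sites in the middle and for 75.5% (70.7 to 79.7) of the 347 lowest. Of the 29 sites above the list median in both later lists, 25 (86.2%, 69.4 to 94.5) had one. Their day 0 intervals were longer, with a median of 72.6 kb against 38.7 kb over all 1040 sites, and the shares were not adjusted for length. The 786 sites with an unlisted number had a median percentile of 27.4 at day 28 and 21.3 at day 9; the 254 sites without one had 25.8 and 19.6. Read in this way, for these 254 sites (24.4%) the numbering leaves no room for a called day 0 peak between the listed neighbours. Among them 72 scored at least 200 in both later lists, 81 lay over 10 kb from any day 0 peak, and 4 stood above the list median in both lists. For the other 786 a called day 0 peak may lie in the interval. For none of the 1040 sites do the lists alone show that the place was free of CTCF at day 0, since a bound place need not be called. The sites are therefore described as absent from the day 0 list and not as newly bound.

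The strongest sites, ranked by the lower of their percentiles in the later lists, are given by their mm9 positions, counted from 1. The highest was the site at 49466311 to 49466902 of chromosome 9, which scored 3100 at day 28 and 2616.17 at day 9. Its day 28 peak was 592 bp wide, at width percentile 0.982 of like-scoring constant peaks, the nearest day 0 peak was 3.98 kb away, and 1 day 0 number was unlisted in its interval of 24.5 kb. The next lay on chromosome 19 at 38553357 to 38554165 (day 28 score 2507.71, day 9 score 1828.05), 19.5 kb from a day 0 peak and with 1 unlisted number in 102.5 kb. The site on chromosome 2 at 12271770 to 12272460 (2653.32 and 1498.68) lay 24.1 kb from the nearest day 0 peak, in an interval of 63.0 kb with no unlisted number. Of the strongest 3, this was the site with no numbered day 0 peak between its listed neighbours.

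Of the 9 that followed, 7 also had an unlisted day 0 number. The site on chromosome 8 at 120074296 to 120075051 scored 2084.73 at day 28 and 1789.24 at day 9, and the site on chromosome 11 at 107254580 to 107255391 scored 2082.19 and 1289.67; each had 1 unlisted day 0 number. The site on chromosome 10 at 60820069 to 60821070 (day 28 score 1577.5, day 9 score 1258.87) was wide, at 1002 bp, and had no unlisted number, although a listed day 0 peak began 0.872 kb away. The site on chromosome 1 at 121823717 to 121824607 (1678.52 and 758.61) likewise had no unlisted number and a day 0 peak 1.56 kb away. The other 5 lay on chromosome 9 at 88257204, chromosome 2 at 165677741 and 124849950, chromosome 1 at 129210964 and chromosome 4 at 144646799. These 5 had day 28 scores between 1012.03 and 1780.69, day 9 scores between 705.5 and 1433.34, and 1 to 5 unlisted day 0 numbers each. In all, 9 of the strongest 12 had an unlisted day 0 number, near the share of 75.6% over all 1040 sites. Long intervals without a later-only region often had one as well: 46.6% at 50 to 100 kb and 57.1% over 100 kb.

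The strongest sites without an unlisted number were singled out after their values were seen. Besides the sites on chromosomes 2, 10 and 1 above, the next, at 173097940 to 173098600 of chromosome 1, scored 679.32 at day 28 and 552.33 at day 9 and had a day 0 peak 3.11 kb away. A second site on chromosome 10 at 60825438 to 60826444 (1349.08 and 486.99) lay in the same 26.4 kb interval as the one at 60820069. That interval, free of any numbered day 0 peak, thus held a pair of well-scored sites of the later stages.

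Some sites differed strongly between the later lists. The site at 24775935 of chromosome 19 scored 627.72 at day 28 and 108.1 at day 9. The site at 49167255 of chromosome 13 scored 500.06 and 101.42, the site at 28383460 of chromosome 17 scored 1308 and 165.69, and the site at 7291977 of chromosome 9 scored 637.81 and 117.24. These had the largest percentile gains at day 28, of 42.1 to 45.2 points, and each was near the lower limit of the day 9 list or in its lower part.

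The largest differences in the other direction were -66.5 to -34.9 points. The site at 19379703 of chromosome 9 scored 103.81 at day 28 and 1171.65 at day 9, and the site at 132413640 of chromosome 6 scored 195.28 and 1210.98. Both had narrow peaks: 303 bp at day 28 and 368 bp at day 9 on chromosome 9, and 250 bp and 328 bp on chromosome 6, with day 9 width percentiles of 3.88 and 1.49. Both also lay far from other CTCF sites, 489.9 kb and 185.4 kb from the nearest day 0 peak. The other 2, at 116207883 of chromosome 11 (136.68 and 443.45) and at 47208287 of chromosome 13 (122.08 and 362.6), had peaks of common width.

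At the weak end, 3 sites barely entered the lists. The site at 71160330 of chromosome 7 scored 100.07 at day 28 and 168.21 at day 9. The others, at 105307362 of chromosome 12 (112.74 and 100.01) and at 15070875 of chromosome 6 (165.96 and 100.01), stood at the lower limit of the day 9 list. The widest site, at 57152274 of chromosome 1, measured 1880 bp and scored 1148.3 at day 28 and 380.87 at day 9. The next widest both lay on chromosome 6: the site at 87139377 measured 1700 bp (129.81 and 119.98), and the site at 115491330 measured 1510 bp (205.65 and 172.9), with a day 28 peak of 1510 bp and a day 9 peak of 275 bp.

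Sites absent from the day 0 list lay among day 0 sites and not apart from them. The nearest day 0 peak was a median of 6.94 kb away (quartiles 2.62 and 17.6 kb), and 60.2% of the sites (57.2 to 63.1) had one within 10 kb. For regions of all stages, with their own day 0 peaks left out, the median to the next day 0 peak was 5.33 kb and the share within 10 kb was 66.6% (66.1 to 67.1). At short range the contrast was wider: a day 0 peak within 1 kb was found for 10.0% of the sites (8.32 to 11.97) and for 16.5% of the all-stage regions (16.1 to 16.9). It was not particular to these sites. The share was 12.9% (10.8 to 15.3) for regions listed at day 9 alone and 11.4% (10.0 to 12.9) for day 28 alone. All these later-only sets exclude regions that overlap a day 0 peak. Within 100 kb the shares were 98.5% and 98.4%.

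At the limit of the selection, the site closest to a day 0 peak, at 60272971 of chromosome 3, lay 10 bp from it and scored 540.92 at day 28 and 122.98 at day 9. The next closest were the site at 61664981 of chromosome 18 (28 bp, 335.93 and 141.09) and that at 93037141 of chromosome 12 (30 bp, 141.23 and 127.5). On the other side of the limit, the region at 121849556 of chromosome 7 overlapped a day 0 peak by 122 bp and scored 282.49 at day 28 and 186.24 at day 9. The regions at 51767618 of chromosome 1 (167 bp, 365.8 and 121.12) and at 34896759 of chromosome 16 (176 bp, 328.29 and 159.34) followed. The scores on either side of the limit overlapped.

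Of the sites farthest from any day 0 peak, the one at 83045183 of chromosome 13 lay 625.4 kb away and scored 108.05 at day 28 and 101.44 at day 9. The narrow site at 19379703 of chromosome 9 came next, and then the site at 144003965 of chromosome 7, at 241.5 kb, with scores of 220.2 and 107.83. The 3 most isolated sites were weak in at least 1 of the later lists.

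Day 9 regions without a day 0 peak were found again at day 28 in a smaller share than those with one. Of the 1903 day 9 regions without a day 0 peak, 1040 (54.7%, 52.4 to 56.9) had a day 28 peak, while over all day 9 regions this share was 91.7% and over the 38632 with a day 0 peak it was 93.5% (93.3 to 93.8). Weighted to the day 9 score deciles of the regions without a day 0 peak, regions with one were found again in 77.6% of cases. Within the lowest decile of the day 9 list, 35.4% (31.9 to 39.0) of regions without and 60.9% (59.2 to 62.6) of regions with a day 0 peak were found at day 28. In the third decile the shares were 68.1% (62.8 to 73.0) and 90.7% (89.7 to 91.6), and in the fifth 87.0% (79.02 to 92.2) and 99.8% (99.6 to 99.9). The share without a day 0 peak did not rise further in the sixth, at 72.9% (60.4 to 82.6) of 59 regions. With a day 0 peak it was 99.98% there. Seen from day 28, 35.5% (33.8 to 37.3) of regions without and 87.6% (87.3 to 87.9) of regions with a day 0 peak had been found at day 9.

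**Figure D3:**
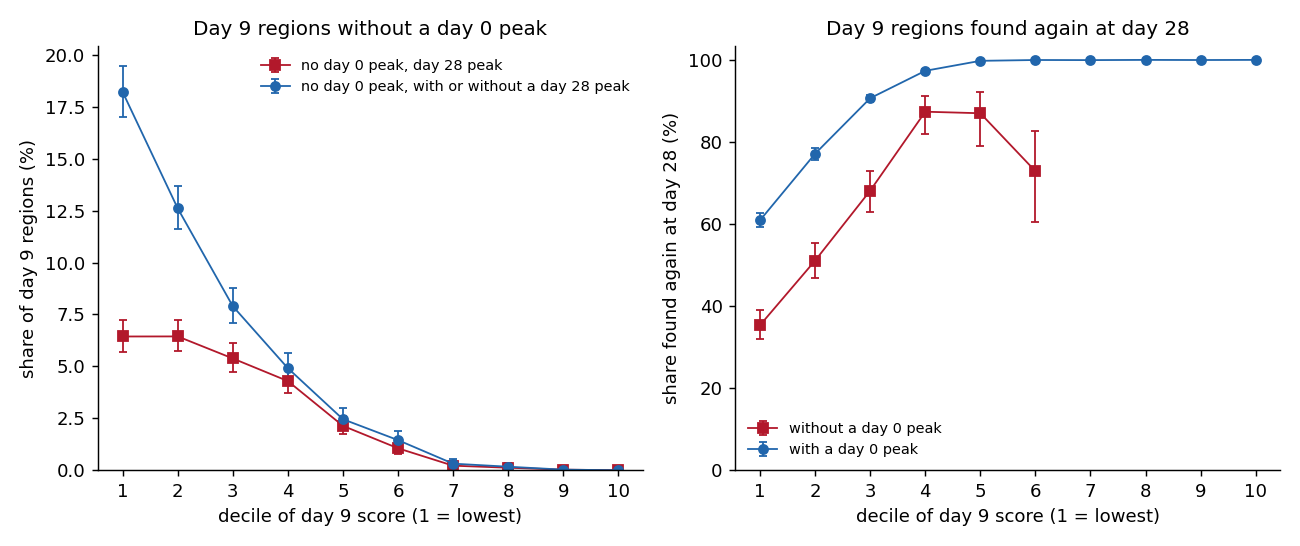
Left, the share of day 9 regions in each decile of the day 9 score (horizontal, 1 is the lowest) that had no day 0 peak but a day 28 peak (red squares), and that had no day 0 peak whatever the day 28 list held (blue circles). Right, the share of day 9 regions found again at day 28, for those without a day 0 peak (red squares, deciles with at least 20 such regions) and those with one (blue circles), with 95% Wilson intervals; in the lowest decile these are 35.4% and 60.9%.

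The sites made up 6.44% (5.71 to 7.25) of the lowest decile of day 9 regions, 4.29% (3.71 to 4.96) of the fourth and 0.121% (0.0519 to 0.284) of the eighth. Along the day 28 list the course was flatter at first, with 4.27% (3.70 to 4.91) in the lowest decile, a high of 5.22% (4.60 to 5.91) in the fourth and 0.112% (0.0480 to 0.263) in the eighth. In the day 28 list the share was thus highest in the fourth decile, but its interval overlapped that of the lowest.

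Constant CTCF sites close to them ranked higher at the later stages. Regions found at all stages were ranked in each list over the 22972 that had 1 unsaturated peak per list. Their own ranks did not enter the selection. The ranks come from the same lists that chose the sites, however, so the shift is a description and not independent support. Of the ranked regions, 1820 lay within 50 kb of a site absent from the day 0 list. Their median day 9 minus day 0 difference was 4.47 percentile points (3.46 to 5.59), against 0.0337 (-0.200 to 0.322) over all 22972. Their day 28 minus day 0 median was 3.76 points (2.06 to 5.40), against -0.455 (-0.768 to -0.126) over all. Between day 28 and day 9 the median was -1.36 (-2.05 to -0.583), against -0.225. Their median percentile was 39.5 in the day 0 list, 48.3 in the day 9 list and 46.9 in the day 28 list, where 50 is the median of all ranked regions, so they were farthest below it at day 0.

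The shift fell with distance, and the starting rank rose with it. The median day 0 percentile was 39.0 up to 10 kb from a site and 53.2 beyond 1 Mb. The median day 9 percentiles there were 48.8 and 50.3. Regions of equal day 0 rank were not compared, so distance and starting rank cannot be told apart. The 468 ranked regions up to 10 kb from a site had a day 9 minus day 0 median of 5.91 points (3.80 to 8.42), and 65.2% of them ranked higher at day 9. The median was 4.08 at 10 to 50 kb, 2.05 at 50 to 100 kb, 0.601 at 100 to 500 kb, -0.540 at 500 kb to 1 Mb and -1.32 (-1.81 to -0.888) beyond 1 Mb. On 18 of the 19 chromosomes the ranked regions within 50 kb had a higher median than their whole chromosome; the exception was chromosome 4 (-5.13 against -1.90). Neighbours of the sites without an unlisted day 0 number had a median of 5.73 points (4.11 to 8.48, 513 regions), and neighbours of those with one 3.83 (2.68 to 5.27, 1376 regions). These intervals overlap.

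**Figure D4:**
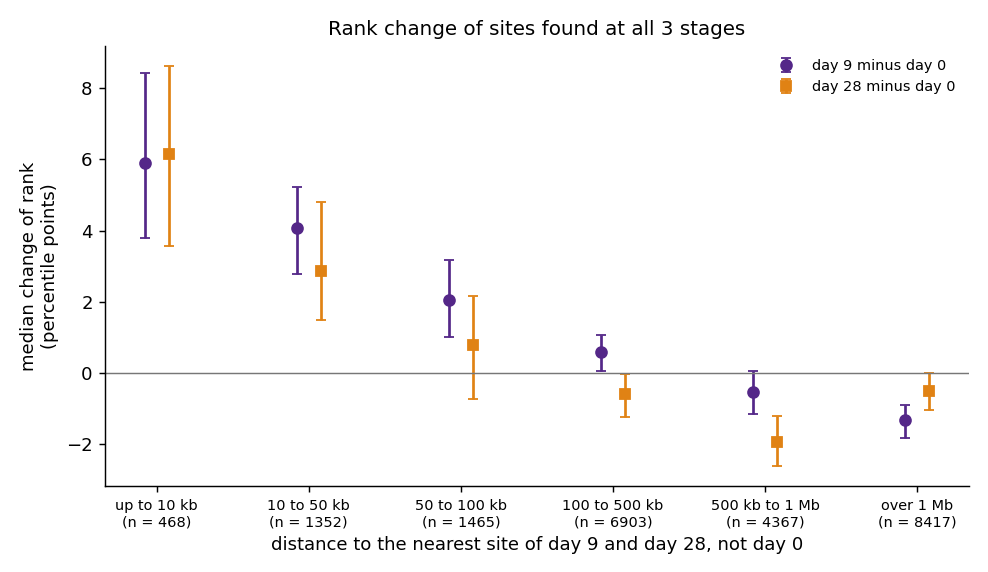
Median change of within-list rank (vertical, percentile points, with the 95% binomial interval of the median) of CTCF regions found at all 3 stages, by their distance to the nearest site of day 9 and day 28, not day 0 (horizontal, with the number of regions). The day 9 minus day 0 medians (circles) run from 5.91 up to 10 kb to -1.32 beyond 1 Mb. The day 28 minus day 0 medians (squares) are 6.15 and -0.505 at these distances. The median day 0 percentile differs too, at 39.0 and 53.2.

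Neighbours of other regions were ranked in the same way. Within 50 kb of regions listed at day 9 alone, the day 9 minus day 0 median was 3.34 points (2.18 to 4.46) and the day 28 minus day 0 median 0.502 (-1.04 to 1.64). Within 50 kb of regions listed at day 28 alone these medians were 2.43 (1.55 to 3.30) and 3.64 (2.80 to 4.68). Around regions missing at day 9 alone they were -0.670 (-1.15 to -0.168) and -0.911 (-1.48 to -0.309), and around regions missing at day 28 alone 0.0229 (-0.579 to 0.716) and -2.675 (-3.59 to -1.79). Around the sites kept at both later stages they were 4.47 (3.46 to 5.59) and 3.76 (2.06 to 5.40). The day 28 minus day 0 value was thus near that around regions of day 28 alone. Median day 0 percentiles differed: 39.5 around the sites, 44.0 around regions of day 9 alone and 43.3 around those of day 28 alone. These sets share regions and lists, and the differences between them were not tested.

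The share of day 9 regions that were such sites ran from 1.41% to 3.72% over the chromosomes. It was highest on chromosome 14 (57 of 1533, 3.72%, 2.88 to 4.79), chromosome 8 (84 of 2317, 3.63%, 2.94 to 4.47) and chromosome 12 (46 of 1540, 2.99%, 2.25 to 3.96). It was lowest on chromosome 19 (18 of 1280, 1.41%, 0.891 to 2.21), chromosome 4 (49 of 2580, 1.90%, 1.44 to 2.50) and chromosome 7 (54 of 2654, 2.03%, 1.56 to 2.65). Over all 19 chromosomes it was 2.57%. Neighbours in this order had overlapping intervals. Chromosomes with a larger share also had constant sites that ranked higher at day 9: Spearman's rho between the share and the median day 9 minus day 0 rank of the ranked regions was 0.696 over 19 chromosomes and 0.576 without chromosomes 14 and 19. Both measures come from the same day 9 and day 0 lists, so this is a description.

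**Figure D5:**
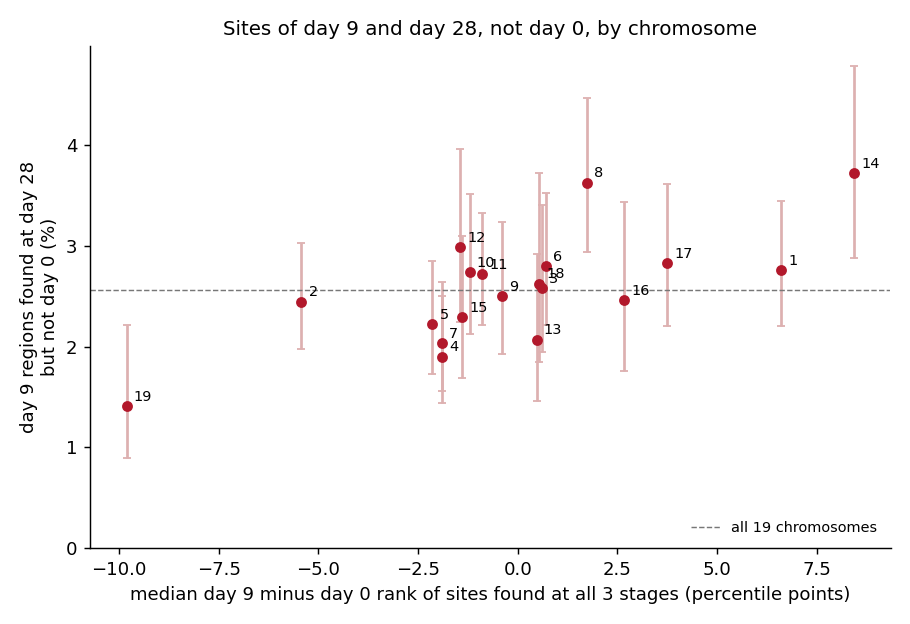
Each point is 1 chromosome, with the median day 9 minus day 0 rank of CTCF regions found at all 3 stages (horizontal, percentile points) and the share of its day 9 regions found at day 28 but not at day 0 (vertical, percent, with 95% Wilson interval). Chromosome 14 lies at 8.44 points and 3.72% and chromosome 19 at -9.81 points and 1.41%; the dashed line marks 2.57% over all 19.

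Some sites lay close to each other along the chromosomes. The spacing of an equal number of other CTCF regions was not measured, so grouping beyond the common spacing is not shown. The nearest other such site was a median of 279.8 kb away (quartiles 87.0 and 981.1 kb), and 294 sites (28.3%) had another within 100 kb. Pairs within 100 kb numbered 94, and 31 longer runs held 106 sites. Of the 626 stretches of 4 Mb with a day 9 region, 232 held no such site. The most sites lay on chromosome 17 at 44 to 48 Mb, with 14 of 197 day 9 regions (7.11%, 4.28 to 11.6). Next came 11 sites each on chromosome 11 at 112 to 116 Mb (of 158) and at 116 to 120 Mb (of 256) and on chromosome 8 at 108 to 112 Mb (of 135, 8.15%). In these 4 stretches the ranked constant sites had median day 9 minus day 0 shifts of -1.99, 3.96, -5.98 and 3.48 points, in that order. By share, the highest of the 20 stretches with the most sites was chromosome 1 at 120 to 124 Mb (9 of 90 day 9 regions, 10%), with a median shift of 13.9 points, a stretch chosen after its value was seen. Over the 459 stretches with at least 20 day 9 regions and 20 ranked regions, the sites made up 3.05% (2.75 to 3.38) of day 9 regions in the 153 stretches with the highest shifts, 2.83% (2.56 to 3.13) in the middle 153 and 2.02% (1.80 to 2.27) in the 153 with the lowest. Share and shift of a stretch come from the same day 9 and day 0 lists, so this is a description and not independent support.

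The longest run lay on chromosome 12 at 105659965 to 105900237 and held 7 sites among 20 union regions in 240.3 kb. Its strongest site, at 105659965, scored 534.9 at day 28 and 375.45 at day 9. The site at 105785702 scored 355.66 and 228.83, and the one at 105870992 scored 366.04 and 223.62. The 4 others, at 105688429, 105782871, 105817139 and 105899634, scored between 195.22 and 256.71 at day 28 and between 102.68 and 146.16 at day 9. All 7 were thus weak to middling at both stages, and 4 of them had an unlisted day 0 number in their interval. Among these, the sites at 105785702 and 105817139 shared the same interval of 66.8 kb, which had 2 such numbers. The run also held 7 regions found at all stages and 1 listed at day 0 alone, and 4 of its 6 ranked regions stood higher at day 9 (range -8.14 to 50.9 points).

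A run of 5 sites on chromosome 14 spanned 33795342 to 33960589, where 7 union regions lay in 165.2 kb and none was listed at day 0 alone. Day 28 scores there were between 117.78 and 288.11 and day 9 scores between 108.63 and 172.09. Every one of the 5 sites lay in a day 0 interval with an unlisted number. The sites at 33849850, 33933794 and 33936710 shared the same interval of 112.4 kb, which had 2 such numbers. Among intervals over 100 kb without a later-only region, 57.1% had one. On chromosome 19, 4 sites between 38516076 and 38685730 included the second strongest of all, at 38553357. The site at 38640899 scored 1671.49 at day 28 and 338.28 at day 9, and the site at 38684789 scored 604.44 and 169.59. No region in this 169.7 kb span was found at all stages, so on the chromosome with the fewest such sites this span held 4 of the 18.

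Besides the runs of 7 and 5 sites, 7 runs held 4 sites, of which the 4 with the longest span are described, and 22 held 3 sites. The run on chromosome 19 given above is among them. On chromosome 2 at 163770195 to 163976897 the day 28 percentiles were between 11.7 and 52.2 and the day 9 percentiles between 0.407 and 27.7; 1 of its 3 ranked regions ranked higher at day 9 (median day 9 minus day 0 difference -1.63 points). On chromosome 8 at 124558797 to 124742346 they were between 13.5 and 70.7 at day 28 and between 14.9 and 43.6 at day 9, and 5 of the 10 ranked regions there ranked higher at day 9 (median -7.44 points). The strongest site of that run, at 124741136, was 1211 bp wide at day 28 and 464 bp at day 9, and scored 1956.4 and 244.02. On chromosome 8 at 93737507 to 93904767 the percentiles were between 19.7 and 30.5 at day 28 and between 8.69 and 35.8 at day 9, and 5 of the 6 ranked regions within the run ranked higher at day 9, with a day 9 minus day 0 median of 28.8 points over the 6.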

How the data were processed

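CTCF was profiled by ChIP-seq at 3 stages of MC3T3-E1 differentiation. MACS 1.4.1, Bowtie 0.12.8, CASAVA 1.6 and the mouse build mm9 are named in the submitters' processing notes. The authors deposited 1 peak list per stage with a score per peak, taken to be -10 log10 of the p-value as MACS writes it; how repeats and input entered is not given in the sources used here. Scores at or above 3100 were treated as tied. Python 3.11.15 with numpy 2.4.6, scipy 1.17.1 and pandas 2.3.3 merged peaks sharing 1 bp on chromosomes 1 to 19. Percentiles are midranks within each list. The functions for classes, distances and peak numbers were tested on simulated lists. Shares carry 95% Wilson intervals and medians 95% binomial intervals. With 1 list per stage no test between days was made. No genome or annotation of mm9 was used here, so sites have no gene names, sequences or motifs. The sites, measures and rule for named regions (strongest, weakest, most changed, nearest, farthest, widest, runs, chromosomes, 4 Mb stretches) were chosen with earlier results of these data known.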

Additional observations from a re-analysis of the deposited data

How the results depend on the processing

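No paired analysis was possible because each stage has 1 peak list and the labels give no replicate numbers. Widening day 0 peaks by 500 bp (989 sites), asking for an overlap of 50% of the shorter peak (1043 sites) and adding chromosome X (1063 sites) left the values tried close to the reported ones. With a score of at least 200 in each list, 609 sites were left, 2.02% of day 9 regions; their median percentile was 24.997 at day 28 and 16.1 at day 9, 51.1% lay within 10 kb of a day 0 peak, 94.3% had a day 0 number missing from the shortened list, and 68.2% of day 9 regions without a day 0 peak were found at day 28. With the 42774 highest-scoring peaks of each list, which drops day 0 peaks under 314.53, the sites numbered 3342, 8.24% of day 9 regions; the corresponding values were 25.2, 21.9, 46.3%, 98.3% and 57.5%, and ranked neighbours stood 3.15 points higher at day 9 than at day 0. The number of sites therefore depends on where the day 0 list ends. Missing numbers rise in both settings by construction, since removed peaks are counted as unlisted. Alternatives added after seeing the data kept sites between day 0 peaks under 20 kb apart (67.9% with an unlisted number) and left out chromosomes 8 and 14 (neighbour shift 4.21 points). Read depth is unknown, so the strength below which a site is missed is not known for any list.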
